A study of Mus musculus with 4 samples.

Results

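The genes described here carry the signal from Toll-like receptors to interferon beta: the adaptors Ticam1 (TRIF), Ticam2 (TRAM) and Myd88, the kinase Irak4, the ubiquitin ligases Traf3 and Traf6, the kinases Tbk1 and Ikbke (IKK-epsilon), and the transcription factors Irf3 and Irf5. They were taken by name and matched by the RefSeq accessions of the array's probes, which found all 10 genes with 11 probes, out of 20637 named genes and 55597 probes on the array. Irak4 had a pair of probes and each of the other genes had 1. All 11 probes were well above background on all 4 arrays, so no member was removed by a filter on dim probes.

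Expression was measured in dendritic cells sorted by flow cytometry from the lamina propria of the colon, the connective tissue under the gut epithelium, of C57BL/6J mice. The 4 groups were CD300a-deficient germ-free (GF, raised without microbes) mice, wild-type (WT) GF mice, CD300a-deficient mice kept specific pathogen-free (SPF, with a microbiota but without listed pathogens) and WT SPF mice. CD300a is an inhibitory receptor of myeloid cells that binds phosphatidylserine on dying cells. The mice were not given any treatment that the labels name, their age is not stated, and the GF mice are labelled male and the SPF mice female. Each group has 1 array, with lamina propria cells of 5 mice per condition; whether the cells of the 5 mice were pooled before RNA extraction is not stated.

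A level below is the log2 of the background-subtracted signal minus the array's 75th percentile, and a difference is the CD300a-deficient (KO-labelled) level minus the WT level, or the GF level minus the SPF level, on that scale. With 1 array per group there is no spread between animals and no test, and no p-value is given. A gene counts as called when it differed at least 2-fold, a difference of 1 or more on this scale. The scanner software's own error, a technical error only, came to between 0.20 and 0.23 for a difference between 2 arrays of a member probe. As a wider yardstick, the differences read by different probes of the same gene had a root mean square SD of 0.40 for KO-labelled minus WT under GF housing, 0.372 under SPF housing, 0.658 for GF minus SPF in KO-labelled cells and 0.661 in WT cells. The number of arrays limits the precision of every value.

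Both GF arrays were on one slide with its own scan and both SPF arrays on another, so slide, scan, labelled sex and housing cannot be told apart, whereas each genotype comparison lies within 1 slide. The number of named genes well above background was 15055 on the KO-labelled GF array, 14852 on the WT GF array, 13797 on the KO-labelled SPF array and 14423 on the WT SPF array. Cd300a read 8.05, 7.60, 7.91 and 7.88 in that order; the position of its probe relative to the deletion is not known here, so these levels are no check of genotype, and KO-labelled is used below for that reason. Xist, transcribed from the inactive X chromosome, read 3.62 on the KO-labelled GF array, which is labelled male, and was at background on the WT GF array, while it read 5.45 and 4.87 on the KO-labelled and WT SPF arrays. The Y-linked genes Ddx3y and Uty read 0.59 and -2.02 on the KO-labelled GF array and 2.07 and -1.36 on the WT GF array, and were at background on the SPF arrays. Eif2s3y read -0.59 and 0.32 on the KO-labelled and WT GF arrays and -2.56 on the KO-labelled SPF array, and was at background on the WT SPF array. Since Xist differed between the GF arrays, the sex make-up of the cells and the genotype label cannot be told apart in the GF pair. All 11 dendritic cell markers were above background except Xcr1 on both GF arrays. Their summed linear level, relative to the 75th percentile, was 364.1 and 593.8 on the KO-labelled and WT GF arrays and 815.9 and 794.5 on the KO-labelled and WT SPF arrays.

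In background, lipopolysaccharide at TLR4 and double-stranded RNA at TLR3 use TRIF, with TRAM as the bridge at TLR4. TRIF recruits TRAF3, which leads to TBK1 and IKK-epsilon; these phosphorylate IRF3, and IRF3 then turns on the gene of interferon beta. Most other Toll-like receptors, and TLR4 itself at the cell surface, use MyD88, which assembles with IRAK4 and TRAF6 to activate NF-kappa-B and IRF5. Dendritic cells of the gut are a source of both cytokine programmes.

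Traf3 and Myd88 were the members at least 2-fold lower on the GF arrays in both genotypes, so the 250 bases upstream of their start sites are shown, from RefSeq annotation of GRCm38.p6; this pair was chosen after the values were seen. A promoter was found for 9 of 10 members, all but Ticam2. They were searched on both strands for the interferon-stimulated response element (GAAA, any 2 bases, GAAA), the kappa-B consensus and the AP-1 motif TGANTCA, and capitals mark the matches. Traf3 lies upstream of its start at chr12:111166120-111166369 on the plus strand and Myd88 at chr9:119340019-119340268 on the minus strand.
Traf3: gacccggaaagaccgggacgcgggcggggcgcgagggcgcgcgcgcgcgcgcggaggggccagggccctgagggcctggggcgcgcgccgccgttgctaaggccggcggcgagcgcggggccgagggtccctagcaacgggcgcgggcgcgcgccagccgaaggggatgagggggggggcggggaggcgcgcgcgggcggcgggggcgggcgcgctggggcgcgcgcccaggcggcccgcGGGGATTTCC
Myd88: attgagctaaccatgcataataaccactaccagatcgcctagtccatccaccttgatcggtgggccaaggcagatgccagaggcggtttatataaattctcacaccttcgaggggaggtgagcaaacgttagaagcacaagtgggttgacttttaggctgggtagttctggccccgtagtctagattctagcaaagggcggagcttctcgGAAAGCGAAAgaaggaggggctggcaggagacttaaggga
The Traf3 stretch held a kappa-B match, GGGGATTTCC, whose first base is 10 bases before the start site, and the Myd88 stretch held a response element match, GAAAGCGAAA, that begins 40 bases before it. Of the 9 members searched, 1 held a kappa-B match and 1 a response element, and 0 held an AP-1 match. Over 32851 promoters of the same length the shares were 7.25% for kappa-B, 2.98% for the response element and 6.75% for AP-1. The Traf3 stretch was 85.2% G and C with 49 CG dinucleotides and the Myd88 stretch 51.2% with 9, against medians of 52.4% and 6 over all promoters. A match is a description of these letters and not a measured binding site.

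**Figure D1:**
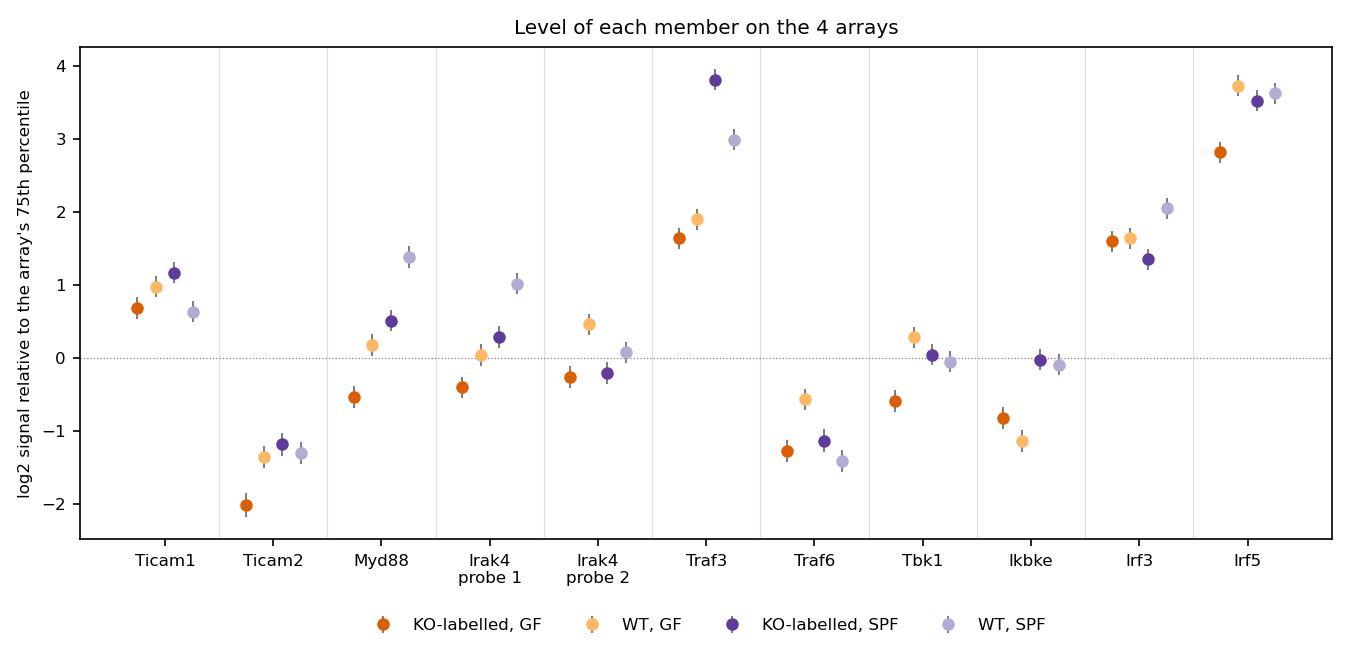
Level of each member on the 4 arrays, as log2 signal relative to the array's 75th percentile. Each point is 1 array and bars are the scanner software's technical error. Traf3 spans the widest range, and levels of different probes are not comparable with each other. Both Irak4 probes are shown.

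The TRIF branch was read by Ticam1 and Ticam2. Ticam1, the adaptor itself, read 0.69 on the KO-labelled GF array, 0.98 on the WT GF array, 1.17 on the KO-labelled SPF array and 0.63 on the WT SPF array. The highest pair of these values (KO-labelled SPF and WT GF) and the lowest pair (KO-labelled GF and WT SPF) each lay within the scanner error, and the order of genotypes was opposite in the 2 housings. Ticam2, which bridges TLR4 to TRIF, read -2.01 in KO-labelled GF cells, -1.36 in WT GF cells, -1.18 in KO-labelled SPF cells and -1.30 in WT SPF cells. The KO-labelled GF array stood below the other 3, whose neighbours in order lay within the scanner error of each other.

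Myd88 spanned a wider range over the arrays than the adaptors of the TRIF branch. Myd88, the adaptor of most Toll-like and interleukin-1 family receptors, read -0.53 on the KO-labelled GF array, 0.18 on the WT GF array, 0.51 on the KO-labelled SPF array and 1.38 on the WT SPF array. Its probe was printed many times, with 9, 7, 10 and 10 usable spots in that order and an SD between spots of 0.06 to 0.10, so all 4 levels stood apart by more than the technical error. Both KO-labelled arrays lay below the WT array of the same housing and both GF arrays below the SPF arrays. KO-labelled values were lower in both housings for 37% of the 12884 genes above background on all 4 arrays. Irak4, the kinase that MyD88 recruits, read -0.40, 0.04, 0.29 and 1.02 on its brighter probe in the same order of arrays, and this order matches that of Myd88. Its other probe read -0.26, 0.47, -0.20 and 0.08. Both Irak4 probes gave lower KO-labelled than WT values in each housing, but for GF minus SPF in WT cells they had opposite signs (-0.97 and 0.39).

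The ubiquitin ligases did not move alike. Traf3, which links TRIF to TBK1, read 1.64 on the KO-labelled GF array, 1.90 on the WT GF array, 3.81 on the KO-labelled SPF array and 2.99 on the WT SPF array. Its range of 2.17 was the widest of the 10 members, and both GF arrays lay below both SPF arrays. Traf6, the ligase downstream of IRAK4, read -1.28, -0.57, -1.13 and -1.41 in the same order. The WT GF array was the highest for Traf6, and the other 3 followed each other within the scanner error.

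The kinases that phosphorylate IRF3 also differed from each other. Tbk1 read -0.59 in KO-labelled GF cells, 0.28 in WT GF cells, 0.05 in KO-labelled SPF cells and -0.05 in WT SPF cells. The SPF arrays lay within the scanner error of each other, with the KO-labelled GF array below them. Ikbke, its inducible relative, read -0.82 and -1.14 in KO-labelled and WT GF cells and -0.02 and -0.09 in KO-labelled and WT SPF cells. Both GF arrays were below both SPF arrays, and the SPF pair lay within the scanner error.

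Neither transcription factor at the end of the route spanned a 2-fold range over the arrays. Irf3, the factor that TBK1 activates, read 1.60 in KO-labelled GF cells, 1.64 in WT GF cells, 1.35 in KO-labelled SPF cells and 2.05 in WT SPF cells. The GF arrays lay within the scanner error of each other and between the SPF arrays. Irf5, the factor of the MyD88 branch, read 2.82 in KO-labelled GF cells against 3.73, 3.53 and 3.63 in WT GF, KO-labelled SPF and WT SPF cells. The KO-labelled GF array again lay below the other 3, which followed each other within the scanner error.

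Under GF housing, KO-labelled cells were compared with WT cells first. Of the 10 members, 9 read lower in the KO-labelled cells and 1, Ikbke, higher. Of all 15697 genes measured, 9579 read lower, as did 8530 of the 12884 genes above background on all 4 arrays. The median difference of the members was -0.55, against -0.20 over all genes measured and -0.26 over those above background on all 4 arrays. No member passed 2-fold (0 higher and 0 lower), beside 8.78% of genes called higher and 7.78% called lower. Among genes above background on all 4 arrays, as every member was, these shares were 3.97% and 6.29%. Irf5 (-0.91, 1.88-fold lower), Tbk1 (-0.87, 1.83-fold lower), Myd88 (-0.71), Traf6 (-0.71), Ticam2 (-0.65) and Irak4 (-0.44, and -0.72 on its other probe) were lower by more than the spread between probes of a gene, as were 40.4% of the 12884 genes above background on all 4 arrays. Ikbke differed by 0.32, Ticam1 by -0.29, Traf3 by -0.26 and Irf3 by -0.04, all within that spread, and 0 members were higher by more than it, beside 17.1% of genes. The sign for Irf3 turned under 4 and that for Traf3 under 2 of the other normalizations tried, to at most 0.25 and 0.08. With cyclic loess normalization and in the deposited table, 3 of 10 members read higher. Which members passed the spread of 0.40 also depended on the scaling. Ikbke passed it in the deposited table (0.60) and with the 75th percentile over probes above background on all 4 arrays (0.52). Myd88 (-0.38), Ticam2 (-0.37) and Irak4 (-0.16) were within it in the deposited table.

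The GF pair differed in its cell type markers too, and less RNA of a gene per cell cannot be told apart from fewer cells of a type in such sorted samples. Macrophage and monocyte markers summed to 221.5 in KO-labelled GF cells and 403.3 in WT GF cells, with 7 of 7 matched markers above background on both arrays, and dendritic cell markers were lower too (364.1 and 593.8, above). Epithelial markers summed to 101.7 and 78.28, T cell markers to 24.68 and 38.22 and endothelial markers to 4.434 and 9.238 in the same order. The epithelial sum follows Krt20, the brightest gene of that list (-0.004). Taken singly, 4 of 7 epithelial markers (Chga, Muc2, Cdx2 and Cdh1) were at least 2-fold higher in KO-labelled GF cells and 0 lower. At least 2-fold lower were 3 of 10 dendritic cell, 2 of 7 macrophage and monocyte and 3 of 4 endothelial markers, with 0 higher. These counts stand beside 8.78% of genes higher and 7.78% lower. The T cell sum follows Cd4, the brightest gene of that list (-0.72). Cd3e (0.38) and Lck (0.61) read higher in KO-labelled GF cells, and Cd3g was not above background there. Neutrophil markers summed to 0.05346 and 0.3594, with S100a8 and Mpo not above background on either array. The part of these markers in the lower values of the 9 members was not tested.

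Under SPF housing the members differed in both directions. Traf3 (0.82, 1.77-fold) and Ticam1 (0.54, 1.45-fold) were higher in the KO-labelled cells by more than the spread between probes, and Myd88 (-0.87, 1.83-fold lower), Irak4 (-0.73, 1.66-fold lower) and Irf3 (-0.70, 1.62-fold lower) were lower by more than it. In all, 6 of 10 members read higher and 4 lower, beside 6570 higher and 8307 lower of all 14877 genes measured. The median difference of the members was 0.08, against -0.06 over all genes measured and -0.05 over those above background on all 4 arrays. Again 0 members were at least 2-fold higher and 0 lower, beside 5.61% and 6.62% of genes, or 3.44% and 2.59% of those above background on all 4 arrays. Past the spread between probes were 2 members higher and 3 lower, beside 16.6% and 21.7% of genes above background on all 4 arrays. Traf6 (0.28), Ticam2 (0.12), Tbk1 (0.10), Ikbke (0.07, -0.01 in the deposited table of the whole series) and Irf5 (-0.10) lay within that spread. The second Irak4 probe read -0.28, also within it.

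The B and plasma cell markers were the marker list with the widest gap in this pair, summing to 95.4 in KO-labelled SPF cells and 20.39 in WT SPF cells. Dendritic cell markers (815.9 and 794.5), macrophage and monocyte markers (419.4 and 488.2), T cell markers (11.49 and 11.03) and epithelial markers (1.817 and 1.503) differed less in their sums. A sum follows the brightest genes of its list. Taken singly, 3 of 11 dendritic cell markers were at least 2-fold higher in KO-labelled cells and 0 lower. Of 5 epithelial markers measured, 2 were at least 2-fold higher (Chga and Krt8, both not above background in WT cells) and 0 lower. These counts stand beside 5.61% of genes higher and 6.62% lower. Neutrophil markers summed to 0.773 and 2.733, fibroblast markers to 8.798 and 13.85, endothelial markers to 4.863 and 7.625 and mast cell markers to 2.151 and 1.29. Their part in the differences of the members was not tested.

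**Figure D2:**
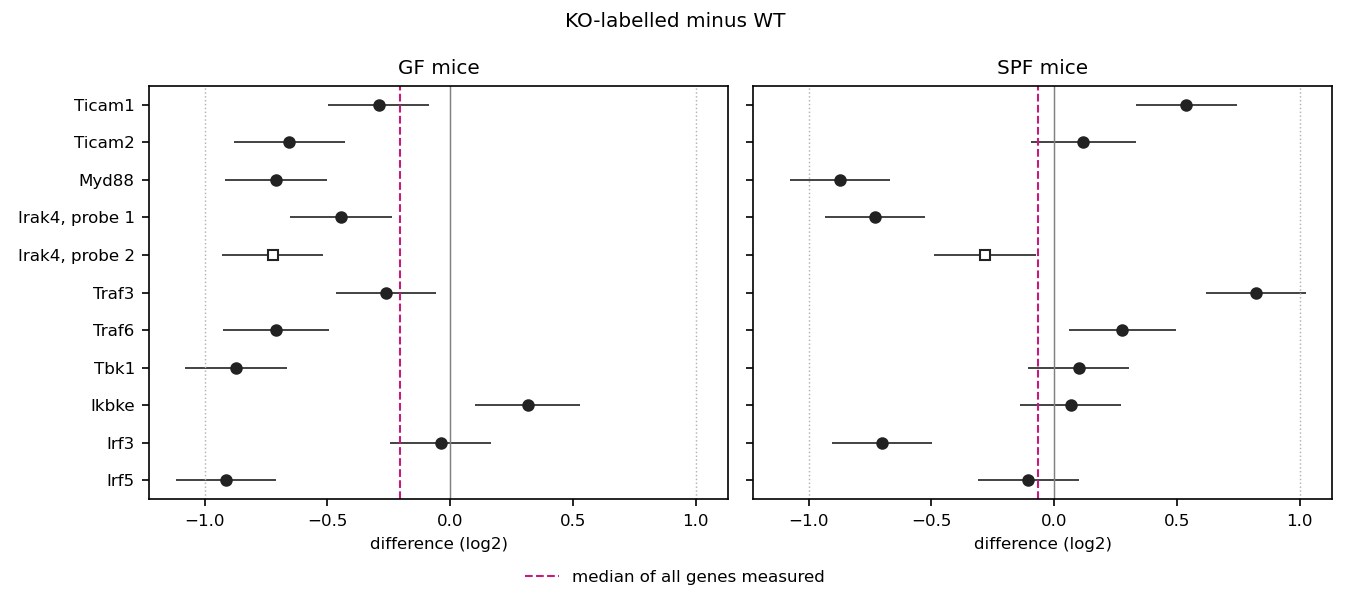
KO-labelled minus WT difference of each member probe, on the log2 scale, under GF housing (left) and SPF housing (right). Bars are the scanner software's technical error, the open square is the second Irak4 probe, dotted lines mark a 2-fold difference and the dashed line is the median of all genes measured (-0.20 and -0.06). No point lies past the 2-fold lines. Myd88, Irf3, Irf5 and both Irak4 probes are below 0 in both panels. Of the 12884 genes above background on all 4 arrays, 37% were lower in both.

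Between housings, Traf3 was the member that differed most in KO-labelled cells and Myd88 the one that differed most in WT cells. Traf3 was 2.17 lower, or 4.50-fold, in GF than in SPF cells among KO-labelled cells. There, 3.33% of all 15572 genes measured were at least as low. Among WT cells Traf3 was 1.09 lower, or 2.13-fold (8.25% of 15656 genes). Myd88 was 2.06-fold lower in KO-labelled cells (-1.04) and 2.31-fold lower in WT cells (-1.20). Ikbke was 2.06-fold lower in WT cells (-1.04) and differed by -0.80 in KO-labelled cells. These gave 2 of 10 members at least 2-fold lower in KO-labelled cells and 3 of 10 in WT cells, with 0 higher in both. Of all genes measured, 15.4% were lower and 21.6% higher in KO-labelled cells, and 9.44% lower and 17.5% higher in WT cells. Among genes above background on all 4 arrays, 15.3% were lower and 13.8% higher in KO-labelled cells, and 6.78% lower and 11.7% higher in WT cells. Myd88 is the member nearest the limit: the KO-labelled count is 1 under 5 of 10 alternative settings, in each of which Traf3 stays past 2-fold, and 3 with quantile normalization, where Ticam2 reads -1.02. The WT count is 0 with normexp, where Myd88 reads -0.98, Traf3 -0.81 and Ikbke -0.71, and 4 in the deposited table.

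The remaining members differed by less than 2-fold. In KO-labelled cells GF housing gave Ticam2 -0.83, Irf5 -0.71, Irak4 -0.69 (its other probe -0.05), Tbk1 -0.64, Ticam1 -0.49, Traf6 -0.14 and Irf3 0.25. The sign for Traf6 turned under 2 scalings, to at most 0.19. In WT cells the values were Irak4 -0.97, Irf3 -0.41, Ticam2 -0.05, Irf5 0.10, Tbk1 0.34, Ticam1 0.34 and Traf6 0.84. The member medians were -0.70 in KO-labelled and -0.23 in WT cells, against 0.05 and 0.13 over all genes measured. Over genes above background on all 4 arrays the medians were -0.06 and 0.09. Past the wider spread between probes were 6 members lower and 0 higher in KO-labelled cells, beside 25.3% and 22.2% of genes, and 4 lower and 1 higher (Traf6) in WT cells, beside 14.5% and 21.8%. In the deposited table Ticam2 (-0.49), Ikbke (-0.46), Irf5 (-0.37) and Irak4 (-0.35) were within that spread in KO-labelled cells. The 2 housing comparisons and the 2 genotype comparisons share arrays and are not independent of each other.

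Other cell types' markers moved with housing. Epithelial markers summed to 101.7 and 78.28 on the KO-labelled and WT GF arrays, against 1.817 and 1.503 on the KO-labelled and WT SPF arrays, with all 7 above background under GF housing and Cdh1 and Cdx2 not above it on either SPF array. B and plasma cell markers summed to 0.9827 and 1.29 on the GF arrays, against 95.4 and 20.39 on the SPF arrays. Macrophage and monocyte markers summed to 221.5 and 403.3 on the GF arrays, against 419.4 and 488.2 on the SPF arrays, and T cell markers to 24.68 and 38.22, against 11.49 and 11.03. Fibroblast markers summed to 15.99 and 13.04, against 8.798 and 13.85, endothelial markers to 4.434 and 9.238, against 4.863 and 7.625, mast cell markers to 1.583 and 2.287, against 2.151 and 1.29, and neutrophil markers to 0.05346 and 0.3594, against 0.773 and 2.733. The part of other cell types in the housing differences was not tested.

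**Figure D3:**
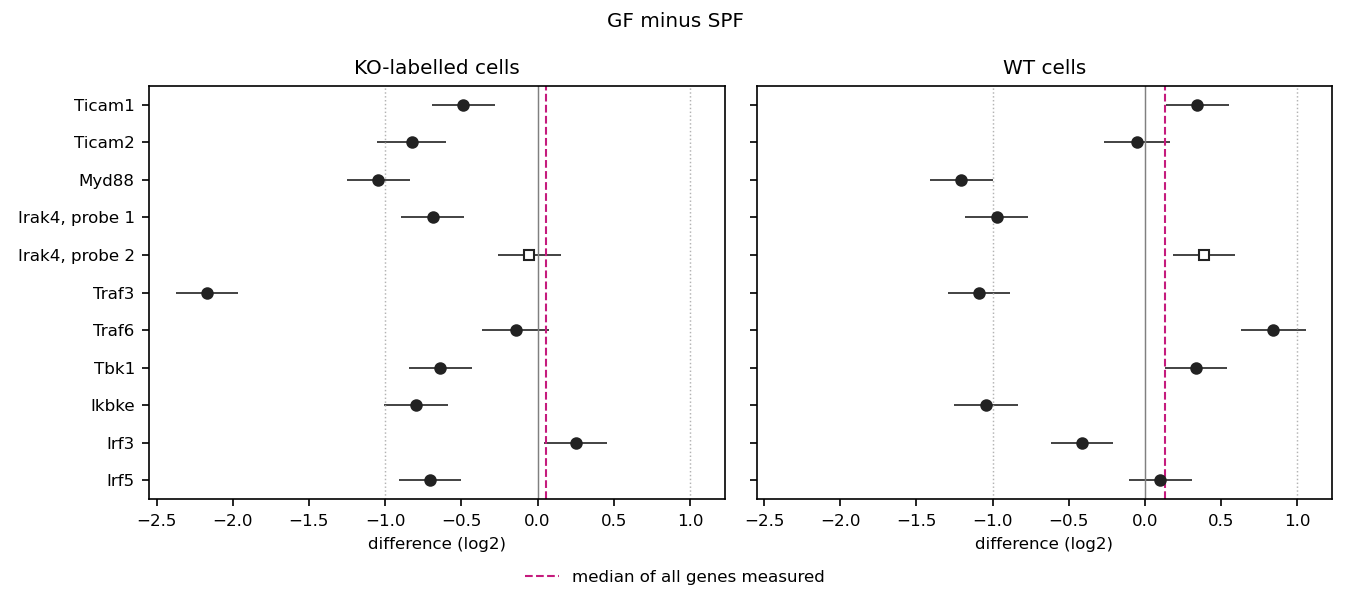
GF minus SPF difference of each member probe, on the log2 scale, in KO-labelled cells (left) and WT cells (right), with bars, open square, dotted lines and dashed line as for the genotype differences. Traf3 and Myd88 lie past the 2-fold line on the low side in both panels, and the 2 Irak4 probes lie on opposite sides of 0 in WT cells.

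The output of the route, Ifnb1, was above background on the SPF arrays only. It read 1.61 in KO-labelled SPF cells and 0.55 in WT SPF cells, a difference of 1.06, and did not exceed background on the GF arrays. GF cells were therefore at least 46.9-fold lower than SPF cells among KO-labelled cells and at least 22.6-fold lower among WT cells, bounds set by the floor of the GF arrays.

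The other genes of the pathway were taken as 7 lists of 59 genes: 8 receptors and co-receptors, 14 other kinases and scaffolds, 4 other TRAF family genes, 6 other transcription factors, 7 genes of the cytosolic nucleic acid routes to TBK1, 12 inhibitors and 8 targets. All had a probe, and Sarm1, an inhibitor, was not above background on any array. Under GF housing, 0 of 56 measured genes were at least 2-fold higher in KO-labelled cells and 11 were lower, with a median of -0.54, beside 8.78% and 7.78% of all genes. The lower ones were 3 of 8 receptors, 1 of 4 TRAF genes, 4 of 11 inhibitors and 3 of 6 targets, and none of the 14 kinases and scaffolds, 6 transcription factors or 7 cytosolic route genes. Of the genes not called, Azi2, a scaffold of TBK1, had another probe at -2.33 (the probe used read -0.56). The list medians lay between -1.09 (targets) and -0.36 (kinases and scaffolds).

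Targets and an inhibitor stood at the low end of that comparison. Cxcl10, an interferon-induced chemokine, read 0.43 in KO-labelled GF cells and 1.98 in WT GF cells (-1.55). Nfkbia, the NF-kappa-B inhibitor that NF-kappa-B itself induces, read 3.50 and 4.87 (-1.38), and Ifit3, an interferon-stimulated antiviral gene, 0.36 and 1.60 (-1.24). The highest differences were those of Sigirr, a receptor that restrains Toll-like receptor signalling (0.82), Tlr9, the receptor for unmethylated DNA (0.59), and Irak3, the inhibitory member of the IRAK family (0.45), none of them 2-fold.

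Under SPF housing, 4 of 58 measured genes were at least 2-fold higher in KO-labelled cells and 1 was lower, with a median of -0.03, beside 5.61% and 6.62% of all genes. Other probes past 2-fold, of genes not called here, were those of Irak2 (1.43), Ifih1 (1.54), Cgas (-1.12) and Zbp1 (-1.19). Traf1, a TRAF without ligase activity that NF-kappa-B induces, read 4.12 in KO-labelled and 2.86 in WT SPF cells (1.25). Cd14, the co-receptor that brings TLR4 into the cell for TRIF signalling, read 5.87 and 4.69 (1.18). Tank, a scaffold that binds TRAF3 and TBK1, differed by 1.07 and, on its other probe, by 0.99. The fourth was Ifnb1 itself. At the low end stood Tab1, a subunit of the TAK1 kinase complex (-1.31), Ptpn6, the phosphatase SHP-1 (-0.95), and Tlr4 (-0.75). Of 11 inhibitors measured 9 read higher and 2 lower, beside 6570 higher and 8307 lower of all 14877 genes. Their median was 0.23 with none past 2-fold, and the TRAF list had a median of 0.43. The other medians were -0.36 for receptors (-0.16 with Tlr3, dim on the KO-labelled array, at its bound), -0.24 for targets, -0.07 for kinases and scaffolds and for transcription factors, and -0.02 for the cytosolic routes.

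The same genes were counted for GF minus SPF in each genotype. In KO-labelled cells 22 of 58 measured genes passed 2-fold on the low side and 4 on the high side (median -0.48; Tlr3, measured at 1.25 but at background on the KO-labelled SPF array and bounded at only 1.41-fold, is not counted), and in WT cells 10 did so on each side (median -0.11). Of all genes, 15.4% were lower and 21.6% higher in KO-labelled cells and 9.44% lower and 17.5% higher in WT cells. Probes of some genes disagreed, as for Irak1, which read 0.56 in KO-labelled and 1.12 in WT cells while its other probes read -1.12 and -1.05 in KO-labelled cells and -1.36 and -1.32 in WT cells. Tollip and Ikbkg, counted as higher in WT cells (1.20 and 1.15), had other probes at -0.80 and -0.60 for Tollip and -0.03 for Ikbkg. Genes not called in WT cells with another probe past 2-fold were Azi2 (1.74), Ddx58 (1.24) and Cgas (-1.07). Besides Irak1, more genes not called in KO-labelled cells had another probe past 2-fold. On the low side these were Irak2 (-2.26), Ifih1 (-1.36), Ikbkg (-1.21), Azi2 (-1.15), Map3k7 (-1.12) and Traf2 (-1.03). On the high side they were Irf1 (2.14) and Ddx58 (1.29). Of 8 targets, 7 were lower and 0 higher in KO-labelled cells, and 5 were lower and 1, Ifit3 (1.12), higher in WT cells. The target medians were -1.72 and -1.32, and Ifit3 read 0.56 in KO-labelled cells. Of 11 inhibitors, 6 were lower and 1 higher in KO-labelled cells (median -1.04), and 2 were lower and 2 higher in WT cells (median 0.24). Of 8 receptors, 2 were higher and 2 lower in KO-labelled cells (median 0.73, or 0.53 with Tlr3 at its bound), and 3 were higher and 0 lower in WT cells (median 0.68). The medians in KO-labelled and WT cells were -0.93 and 0.13 for TRAF genes, -0.54 and -0.22 for transcription factors, -0.67 and -0.36 for the cytosolic routes and -0.11 and 0.12 for kinases and scaffolds. Whether the genotypes differ in these counts was not tested, since there is 1 array per group.

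Named genes show the size of these differences. Cxcl10 read 0.43 in KO-labelled GF cells and 3.84 in KO-labelled SPF cells (-3.42), Isg15, a ubiquitin-like interferon-stimulated protein, 0.66 and 3.66 (-3.00), and Nfkb1, a subunit of NF-kappa-B, 0.75 and 3.52 (-2.77). In WT cells Ccl5, a T cell-attracting chemokine, read 1.33 under GF and 3.62 under SPF housing (-2.29), Isg15 1.87 and 3.87 (-2.00) and Nfkb1 1.29 and 3.10 (-1.80). The other probes of Isg15 and Nfkb1 were lower as well, by -4.11 and -2.26 in KO-labelled and -2.11 and -1.74 in WT cells. The highest were Tlr7, a receptor for single-stranded RNA (1.48 in KO-labelled and 1.97 in WT cells), Otub1, a deubiquitinase that restrains TRAF3 and TRAF6 (1.05 and 1.28), Irak3 in KO-labelled cells (1.09) and Tlr3 in WT cells (1.46, on a dim probe). The other Tlr7 probe read 1.27 and 0.84.

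**Figure D4:**
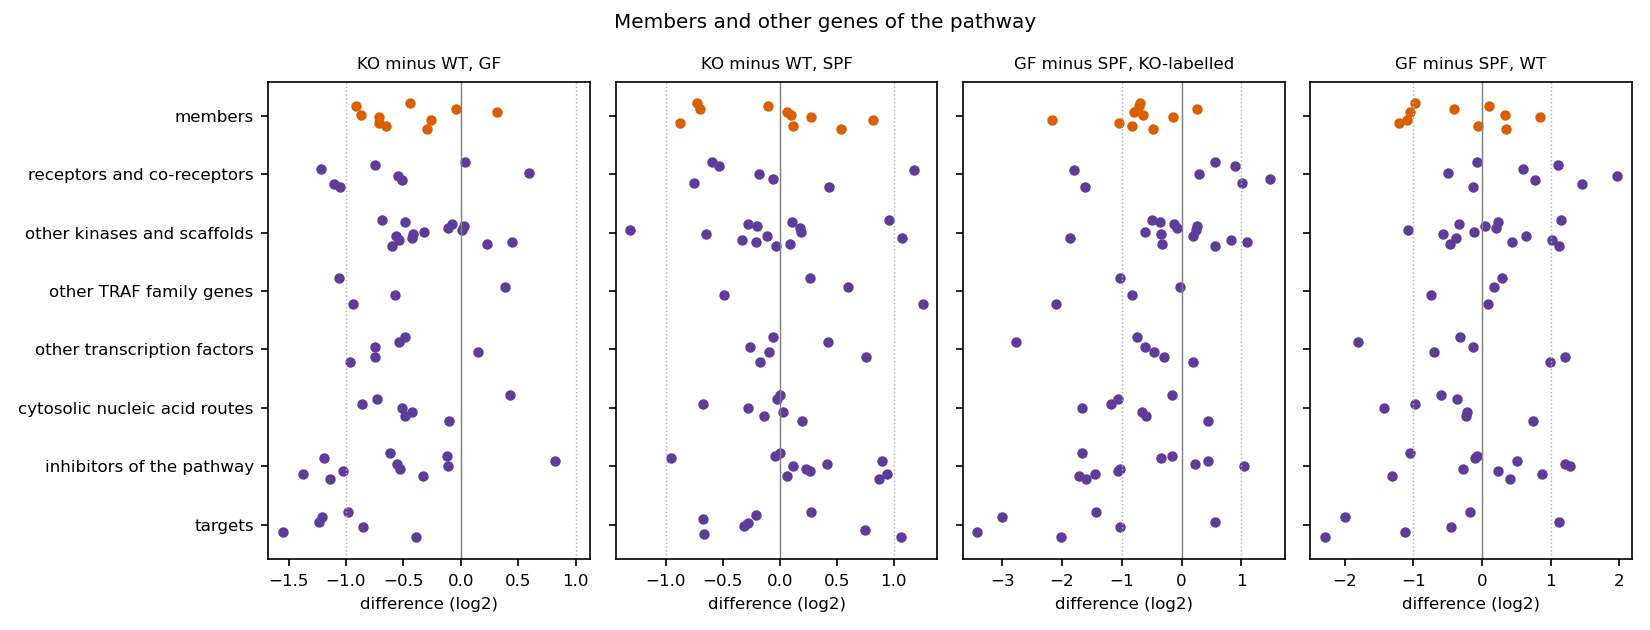
Differences of the 10 members (top row) and of the other pathway genes measured, by list, on the log2 scale, in the 4 comparisons, for genes above background on both arrays of a pair. Each point is 1 gene and dotted lines mark a 2-fold difference. As a list, targets lie lowest in both GF minus SPF panels and in the KO minus WT panel of GF mice. The target Ifit3 lies above 0 in both GF minus SPF panels.

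By the pattern over the 4 arrays, the genes most like Traf3 among the other 12883 above background on all of them were Nup98, a nuclear pore protein, Arih2, a ubiquitin ligase, and Slc38a1, an amino acid transporter. Their levels, after subtracting each gene's mean over the 4 arrays, differed from those of Traf3 by a root mean square of 0.0052, 0.066 and 0.078. Nup98 read -0.17 in KO-labelled GF cells, 0.10 in WT GF cells, 2.02 in KO-labelled SPF cells and 1.19 in WT SPF cells. With 4 arrays that share slides in pairs, such closeness among so many genes is a description only.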

How the data were processed

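Per the labels' protocols, total RNA of sorted cells was turned into amplified cDNA and dyed with Cy3. The 1-colour Agilent arrays, designed on mm9, were scanned and quantified by Feature Extraction 10.10.1.1 (protocol GE1_1010_Sep10), per the file headers. Each spot of the deposited scanner files has a processed intensity, already background-subtracted but not scaled between arrays, per the file headers. The deposited table for all arrays also holds intensity values, which were the processed signal times 7.96, 7.08, 8.24 and 8.30 for the KO-labelled GF, WT GF, KO-labelled SPF and WT SPF arrays, on a linear scale without centring (column medians 331.4, 235.7, 216.3 and 237.2); the rule behind these factors is unknown.

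From the deposited scanner files' processed intensity, and not from that table, log2 minus each array's 75th percentile was computed, without control spots (3671 of each array's spots beside the 59305 used), spots with a non-uniformity or population outlier flag, and 84 probes with no spot left on an array. Accessions were matched to RefSeq tables of GRCm38.p6 without version: 27191 probes were named, 28406 were not, and 19 with conflicting names were left out of the names. The probe with the highest mean stood for a gene. A comparison took genes above background on at least 1 of its arrays. Marker sums add the linear levels of each list's matched genes. The value of 1 marker gene is not reported here.

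The members and lists were chosen with earlier results of these data known. Of the other pathway genes, those named had the 3 highest and 3 lowest differences (both arrays above background), with Ifnb1 always; likeness was computed for the member of widest range. Python 3.11.15 (numpy 2.4.6, pandas 2.3.3, matplotlib 3.10.9) and R 4.3.3 (limma 3.58.1, data.table version 1.17.8) were used, and the counting was tested on simulated data. The alternatives were quantile and cyclic loess normalization, the 75th percentile over probes above background on all arrays, normexp (offset 50), the deposited table, a stricter filter and none, the mean of a gene's probes, outlier spots kept, and 1.5-fold. Normexp used median foreground signals in place of the planned mean signals, which the files do not give, a change made after seeing the data.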

Additional observations from a re-analysis of the deposited data

Results flagged for a closer look

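For 5 of the 10 members the KO-labelled minus WT difference was negative under GF and positive under SPF housing, as it was for 29.2% of the 12884 genes above background on all 4 arrays; opposite signs in either order held for 47.2% of the 14202 genes measured in both pairs. The difference between the housings was not tested, since each group has 1 array. The difference under GF minus that under SPF housing was -1.08 for Traf3 (-0.26 and 0.82), -0.99 for Traf6 (-0.71 and 0.28), -0.97 for Tbk1 (-0.87 and 0.10), -0.83 for Ticam1 (-0.29 and 0.54) and -0.77 for Ticam2 (-0.65 and 0.12). For Traf3 the value under GF housing turned to at most 0.08 with cyclic loess normalization and in the deposited table, so its signs are then not opposite.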

How the results depend on the processing

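Across the alternatives, 359 of 360 member differences moved by less than the spread between probes. The other was Irak4, GF minus SPF in WT cells, at -0.29 with the mean of its probes. Many of the 360 could not move. The stricter filter and no filter leave the member values unchanged, and the mean of probes can change only Irak4. The number of members at least 2-fold lower under GF housing in KO-labelled cells was 1 in place of 2 with cyclic loess normalization, with the 75th percentile over probes above background on all 4 arrays, with normexp, in the deposited table and with outlier spots kept. In WT cells it was 0 in place of 3 with normexp and 4 in the deposited table. At 1.5-fold, 1 member was higher and 3 lower for KO-labelled minus WT with SPF and 5 lower with GF housing (beside 11.5%, 15.4% and 25.9% of genes), and for GF minus SPF 7 were lower in KO-labelled cells (beside 26.7%) and 4 lower and 1 higher in WT cells (beside 18.9% and 29.7%). The deposited table moved the median of all genes by 0.29 in the GF pair and 0.34 for GF minus SPF in KO-labelled cells, and the share of higher among called genes to 80.0% from 53.0% and to 75.4% from 58.4%. The percentile over probes above background moved these medians by 0.21 and 0.19 and the shares to 74.1% and 68.4%. Member medians in those 2 comparisons were -0.26 and -0.36 in the deposited table. Under SPF housing the share was 66.3% with normexp and 57.0% over genes above background on all 4 arrays, against 45.9%. That stricter filter gave 38.7% in the GF pair and 47.3% for GF minus SPF in KO-labelled cells, and 1.5-fold gave 40.8% in the GF pair. No paired analysis was possible because each group has 1 array, and for the same reason no array could be left out. Signal over background does not limit the members, all of which were well above it on every array, but it leaves Ifnb1 with bounds.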
